A study of Mus musculus with 12 samples.

Results

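The genes described here had a mean level in the libraries titled Reactivated of at least 50 normalized counts and at least 2.5 times the mean of each of Basal, Early and Late. A normalized count is a count divided by the library's TMM effective size, relative to the geometric mean of all 12 libraries. Ribosomal, histone, small RNA and some other symbols were left out by name, which removed 15 of 78 rows and left 63 genes. These are 63 of 15668 rows with a count of at least 10 in 3 libraries, and of 24015 rows in the table. The genes were thus chosen by their measured Reactivated level, and every Reactivated value below is a description with no test. Turned to the other groups, the same rule gave 68 rows for Basal, 2 for Early and 530 for Late.

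The libraries came from nuclei of mouse hippocampus, a brain region needed for memory of places and contexts, and each group had 3 libraries. All mice were of the strain ArcCreERT2 x R26R-STOP-floxed eYFP with genotype +/+. In these mice the promoter of Arc, a gene switched on by neuronal activity, drives a tamoxifen-dependent Cre recombinase, which turns on a yellow fluorescent reporter in cells active around the time of the drug. Per the protocols, all received 4-hydroxytamoxifen 1 h before contextual fear conditioning. They were kept in darkness for 24 h before conditioning. Those kept longer had 48 h of darkness after it and 3 days in light before the later collection. Collection followed conditioning by 1.5 to 2 h, or came on day 5, when some mice had first met the fear cue again. After fixation in 1% paraformaldehyde, nuclei were stained for NeuN (a neuronal nuclear protein), Arc and GFP and sorted. Each condition was to reach 10000 nuclei from 10 to 12 pooled mice, in 3 biological replicates. The treatment field is the same for all 12 libraries and names no recall, at odds with the title Reactivated. Neither the age of the mice nor the gate behind each title is stated. The groups therefore rest on the titles alone.

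Reactivation names the renewed activity of neurons that were active during learning, when the animal meets the learned cue again. Neuronal activity induces immediate early genes such as Arc, Fos and Egr1 within minutes, whose products regulate later genes. Nuclear RNA holds newly made and unspliced transcripts, so it reflects recent transcription more than RNA of whole cells does. The hippocampus also holds oligodendrocytes and their precursors, astrocytes, and at its borders the ciliated ependyma and the choroid plexus, whose genes appear among those below.

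Promoter windows of 4 members are printed to show what the sequence comparison read. Dbp, an output gene of the circadian clock, was high in all 3 Reactivated libraries. Wtap, Alkbh5 and Igf2bp2 act on the RNA mark N6-methyladenosine, as part of the enzyme complex that writes it, as an eraser and as a reader, and were highest in Reactivated 2. Each window runs from 250 bases before to 50 bases after the annotated start in RefSeq, build GRCm38.p6, and is written 5′ to 3′ on the gene's strand. They lie at chr7:45704997-45705296 (plus) for Dbp, chr17:12992494-12992793 (minus) for Wtap, chr11:60537433-60537732 (plus) for Alkbh5 and chr16:22163250-22163549 (minus) for Igf2bp2. Capitals mark the E-box letters CANNTG in Dbp and the GC box letters GGGCGG, on either strand, in the other 3. Wtap has 3 annotated windows, and the one listed first is shown.
Dbp: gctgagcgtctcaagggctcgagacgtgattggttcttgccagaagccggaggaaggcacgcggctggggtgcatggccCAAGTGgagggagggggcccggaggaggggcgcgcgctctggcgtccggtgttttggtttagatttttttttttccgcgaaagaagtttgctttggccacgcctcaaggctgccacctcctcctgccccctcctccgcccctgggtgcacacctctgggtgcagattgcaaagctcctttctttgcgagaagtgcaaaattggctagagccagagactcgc
Wtap: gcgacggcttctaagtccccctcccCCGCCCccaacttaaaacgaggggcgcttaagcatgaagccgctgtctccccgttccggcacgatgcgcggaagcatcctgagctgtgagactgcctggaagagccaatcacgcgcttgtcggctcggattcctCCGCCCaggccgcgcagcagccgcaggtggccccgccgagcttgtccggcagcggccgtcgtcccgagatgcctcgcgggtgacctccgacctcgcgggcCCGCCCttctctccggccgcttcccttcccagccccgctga
Alkbh5: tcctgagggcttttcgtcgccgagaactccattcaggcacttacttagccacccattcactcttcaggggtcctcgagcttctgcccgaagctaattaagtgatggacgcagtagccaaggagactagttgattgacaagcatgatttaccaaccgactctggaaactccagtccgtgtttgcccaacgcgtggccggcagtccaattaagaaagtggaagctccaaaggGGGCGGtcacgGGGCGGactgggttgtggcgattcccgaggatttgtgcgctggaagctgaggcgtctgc
Igf2bp2: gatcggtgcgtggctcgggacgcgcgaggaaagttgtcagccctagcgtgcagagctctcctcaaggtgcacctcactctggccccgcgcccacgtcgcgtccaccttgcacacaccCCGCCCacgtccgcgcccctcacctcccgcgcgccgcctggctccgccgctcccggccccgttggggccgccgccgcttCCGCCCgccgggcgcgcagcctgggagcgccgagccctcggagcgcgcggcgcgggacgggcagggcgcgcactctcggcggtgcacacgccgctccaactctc

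Of Adamts7 and Tmem38b, both given as markers of this set, only Adamts7 met the rule. Tmem38b encodes a cation channel of the endoplasmic reticulum. Its level was 12087, 3285 and 8215 normalized counts in Reactivated, against 12805, 14608 and 20912 in Late, 499, 489 and 1125 in Early and 531, 418 and 958 in Basal. Every Late library lay above every Reactivated library, and both groups lay above Basal and Early. Adamts7 is a secreted metalloprotease that cleaves cartilage oligomeric matrix protein. Its level was 695, 347 and 210 in Reactivated, against 106, 107 and 62.6 in Late, 32.4, 29.0 and 88.5 in Early and 20.7, 33.7 and 71.0 in Basal. All 3 Reactivated libraries lay above the other 9, and the Reactivated mean was 4.55 times the Late mean.

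The Reactivated libraries were the least alike, with r of 0.917 to 0.955 between them across genes on the log2 scale, against 0.954 to 0.985 within the other groups. Total counts ran from 4838166 to 11120255 per library. Reactivated 2 had the fewest genes above 0, at 16965. Rn45s, the ribosomal RNA precursor, took 18.8% to 27.7% of counts in Reactivated, 27.9% to 36.5% in Late and 4.72% to 12.9% in Basal and Early. In Basal and Early its share was highest in replicate 3 of each, at 12.2% and 12.9%. Lars2 took 3.54% to 4.61% of the counts in Reactivated and 0.182% to 1.19% elsewhere. No label says why any library differs from its group.

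The 63 genes fell into 3 patterns by library. In 29 members (46.0%), Reactivated 2 was at least 2.5 times both other Reactivated libraries. That held for 0.833% of the 10806 tested rows with a Reactivated mean of 50 or more. In 5 members (Igfn1, Grin2c, Gpr165, Dnaic1 and the gene model Gm20594, all named here after their values were seen), Reactivated 1 stood out in the same way, against 0.879% of those rows. No member and no row had Reactivated 3 as such a library. In the last 29 members no Reactivated library stood out by that measure. Because the rule reads a group mean, 1 library far above the others can carry a gene past it, so these shares describe what the rule selects. The count of 29 for Reactivated 2 was 29 with DESeq2 size factors, 29 with upper quartile scaling and 30 with libraries scaled to the same total.

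Without Reactivated 2, 51 rows met the rule, of which 30 were among the 63. Without Reactivated 1, 62 rows met it and 47 were shared, and without Reactivated 3, 89 met it and 62 were shared. With each of the 3 Reactivated libraries held to 2.5 times the mean of every other group, 7 members remained: Ccdc114, Lrrc17, Nfkbie, Nptxr, Pcp4l1, Sox10 and Tceal6. In a looser reading, each Reactivated library lay above each of the 9 other libraries in 43 of the 63 (68.3%), against 4.35% of all rows tested and 5.65% of those with a Reactivated mean of 50 or more. The rule's fold favours such rows, so this share too describes what the rule selects. These 43 were 25 of the 29 members with no outstanding library, 15 of the 29 led by Reactivated 2 and 3 of the 5 led by Reactivated 1. With equal library totals the count was 35.

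**Figure D1:**
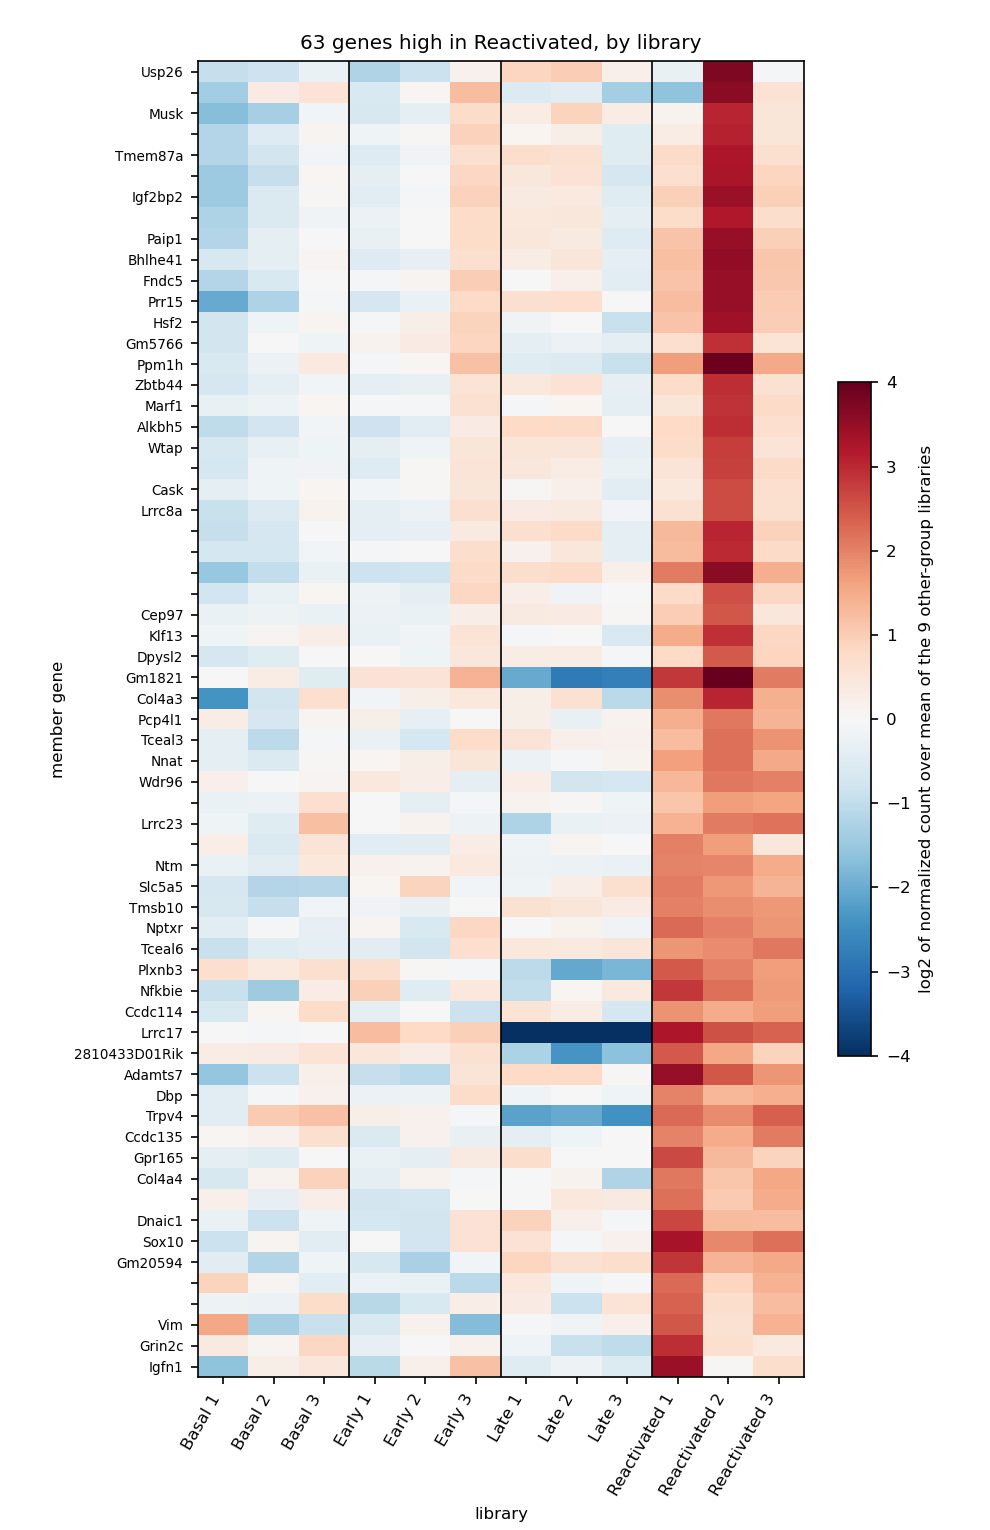
Heat map of the 63 genes (rows) in the 12 libraries (columns), coloured by log2 of the normalized count over the mean of the 9 libraries outside Reactivated (colours saturate at the ends of the bar). Rows are named for the genes the text describes. Rows are ordered by how far Reactivated 2 lies from the other Reactivated libraries, so the genes led by Reactivated 2 (29 of 63) form the upper block.

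Members high in all 3 Reactivated libraries included genes of the synapse and the axon. Nptxr, the neuronal pentraxin receptor, takes part in clustering AMPA-type glutamate receptors. Its level was 1260, 1039 and 874 in Reactivated, against 261, 283 and 233 in Late, 280, 170 and 460 in Early and 192, 246 and 205 in Basal. The lowest Reactivated library was 1.90 times the highest other library, and the fold over the Early mean was 3.49, or 3.15 without the highest Reactivated library. Ntm, the adhesion protein neurotrimin, was at 2927, 2905 and 2082 in Reactivated, against 642, 638 and 618 in Late, 840, 813 and 975 in Early and 622, 548 and 988 in Basal. Its 3 Reactivated libraries stood clear of the other 9, at 3.01 times the Early mean.

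Lrrc17 is a secreted leucine-rich repeat protein known from mouse bone as an inhibitor of osteoclast formation. Its level was 1324, 832 and 735 in Reactivated, against 1.20, 6.61 and 0.934 in Late, 335, 244 and 273 in Early and 140, 135 and 140 in Basal. The groups did not overlap, with Late near 0 and Reactivated the highest. Pcp4l1, a small relative of the calmodulin-binding protein Pcp4, stood at 85.4, 133 and 79.0 in Reactivated and between 19.1 and 37.6 in the other 9 libraries. Nnat, an imprinted gene for a small membrane protein of the developing brain, was at 1088, 1615 and 1001 in Reactivated and between 236 and 494 elsewhere.

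Proteins of the cytoskeleton and of transcription were also among the members, with the order of the other groups differing between them. Tmsb10, which binds actin monomers, was at 560, 501 and 463 in Reactivated, against 210, 193 and 173 in Late, 125, 113 and 139 in Early and 89.4, 73.0 and 129 in Basal. Tceal6, a member of the transcription elongation factor A-like family, was at 208, 226 and 265 in Reactivated and between 32.4 and 96.9 elsewhere. For both, every Reactivated library lay above the other 9 libraries, and the SD of the Reactivated libraries was 49.2 and 29.0 normalized counts. Both were among the members named for a wide gap of this kind, so the gap is a description. Tceal6 and its relative Tceal3, also a member, may share reads, which the counting could split between them. Nfkbie, an inhibitor of the transcription factor NF-kappa-B, was lower, at 73.0, 47.5 and 33.7 in Reactivated and between 3.37 and 19.8 elsewhere.

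Dbp, a transcription factor whose level follows the circadian clock, was at 474, 302 and 319 in Reactivated, against 107, 119 and 106 in Late, 100, 103 and 199 in Early and 88.1, 113 and 134 in Basal. All 3 Reactivated libraries exceeded the other 9, at 2.72 times the Early mean. The hour of day of collection is not in the labels.

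**Figure D2:**
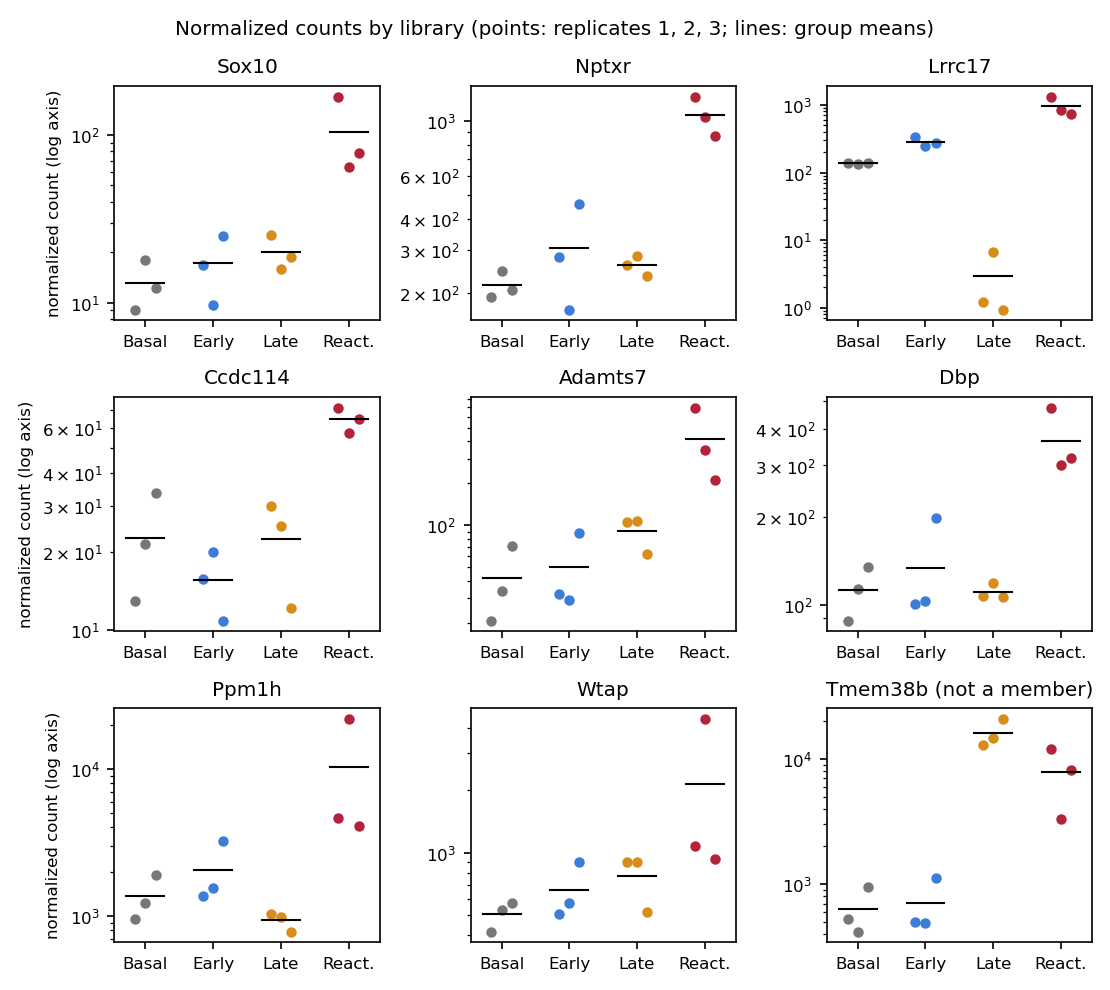
Normalized counts (log axis) of 8 members and of Tmem38b in each library, with points for replicates 1 to 3 from left to right and lines for group means. Sox10, Nptxr, Lrrc17, Ccdc114, Adamts7 and Dbp were high in all 3 Reactivated libraries, Ppm1h and Wtap had 1 high Reactivated point, and Tmem38b was higher in Late than in Reactivated.

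Genes of glia and of progenitors formed a group picked here for function, after values were seen. Sox10, a transcription factor of the oligodendrocyte lineage, had the largest fold of the 63 genes. Its level was 169, 64.2 and 78.2 in Reactivated, against 25.2, 15.9 and 18.7 in Late, 16.7, 9.66 and 25.1 in Early and 9.07, 18.0 and 12.2 in Basal. The Reactivated mean was 5.22 times the Late mean, and 3.58 times it without Reactivated 1, the highest library. Plxnb3, a semaphorin receptor, was at 99.1, 73.9 and 58.6 in Reactivated, 16.7 to 28.5 in Basal and Early, and 8.41, 3.96 and 4.67 in Late. Trpv4, a calcium-permeable channel found in astrocytes and choroid plexus, was at 60.6, 46.6 and 66.6 in Reactivated, 9.07 to 28 in Basal and Early, and 1.87 to 2.64 in Late. Both stood clear of the other 9 libraries. Vim, an intermediate filament of astrocytes and progenitors, did not, with 102, 27.3 and 47.1 in Reactivated against 53.1 in Basal 1.

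The marker lists of the same cell types moved with Reactivated in part. Of the 7 oligodendrocyte precursor markers tested other than Sox10, 5 rose and 0 fell against Late, with a median log2 difference of 2.63 against 0.0263 over all rows. In that comparison 22.6% of all rows were called, 10.3% higher and 12.3% lower, by the quasi-likelihood test of edgeR (Benjamini-Hochberg adjusted p under 0.05). Pdgfra, the growth factor receptor that defines these precursors, rose 6.88-fold (log2 2.78 ± 0.508 SE, adjusted p = 0.00114 in edgeR). Of the same 7, 2 rose against Basal and 3 against Early, where 39.4% (20.6% higher and 18.8% lower) and 26.2% (13.5% higher and 12.7% lower) of all rows were called. The summed level of the list was 181 to 435 in Reactivated, 108 to 155 in Basal, 100.2 to 135 in Early and 62.6 to 68.7 in Late. Without Reactivated 1, which had the highest sum, the calls were 3 against Late, 0 against Basal and 0 against Early. The calls against Basal were also 0 without Basal 3, and those against Early 0 without Early 1 or without Early 2. None of the 8 markers was at 0 in all Reactivated libraries.

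Markers of mature oligodendrocytes did not follow the order of these members. Their sum was 2955 to 7772 in Reactivated and 4777 to 9988 in Late, so Late and Reactivated overlapped, while Basal and Early lay at 1702 to 2613. Of 10 tested, 4 rose and 1 fell against Basal, 5 rose and 1 fell against Early, and 5 rose and 1 fell against Late. Mog, a myelin surface protein, rose 9.09-fold against Late (log2 3.19 ± 0.466 SE, edgeR adjusted p = 0.000190). Without Late 1 or without Late 2 the calls against Late numbered 2, and without Reactivated 1 or without Basal 2 those against Basal numbered 3. In bulk samples, fewer cells of a type and less RNA per cell cannot be told apart. Sox10 and Plxnb3 were highest in Reactivated 1, as were the sums of both lists within Reactivated, and the part of such cells in their level was not tested. The nuclei were stained for the neuronal protein NeuN before sorting, and a gate on NeuN would leave out most glial and ependymal nuclei, but the gates are not stated.

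**Figure D3:**
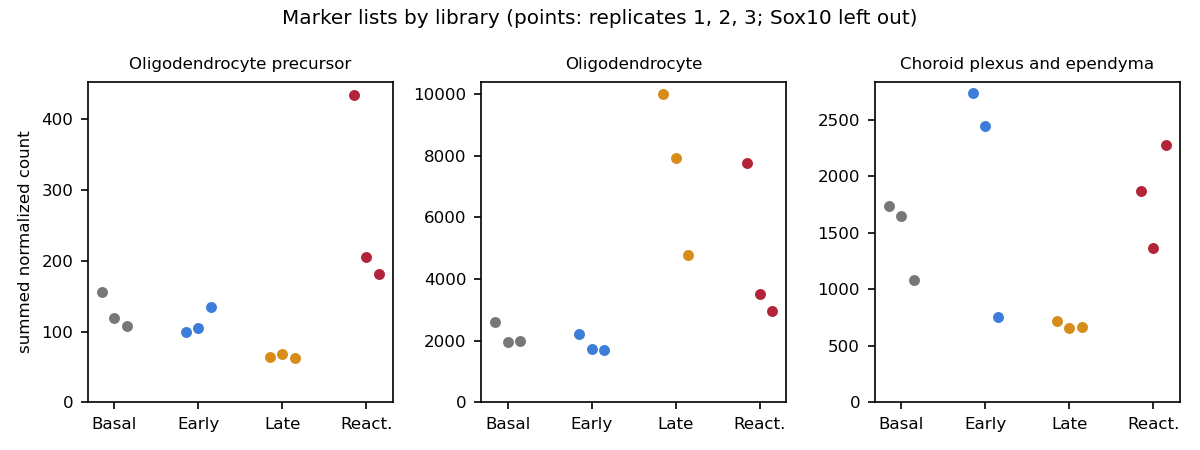
Summed normalized counts of 3 marker lists in each library, with points for replicates 1 to 3 and axes starting at 0. Oligodendrocyte precursor markers (Sox10 left out) were highest in Reactivated (181 to 435), oligodendrocyte markers in Late and Reactivated 1, and choroid plexus and ependyma markers overlapped between Basal, Early and Reactivated.

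A further group picked for function holds proteins of the motile cilium, the beating hair of ependymal cells. Ccdc114 anchors outer dynein arms, Dnaic1 is a dynein intermediate chain, Ccdc135 belongs to the dynein regulatory complex, Lrrc23 to radial spokes, and Wdr96 to the cilium's axoneme. Ccdc114 was at 71.6, 57.2 and 64.8 in Reactivated, against 30.0, 25.1 and 12.1 in Late, 15.7, 20 and 10.9 in Early and 13.0, 21.3 and 33.7 in Basal. Ccdc135 was at 143, 102 and 154 in Reactivated and 24.0 to 56.0 elsewhere. For both, the 3 Reactivated libraries lay close together and above the other 9. Wdr96 stood at 62.0, 109 and 100.0 in Reactivated against 14.5 to 33.4 elsewhere. Lrrc23 stood at 46.8, 75.7 and 80.8 against 7.21 to 40.9. Dnaic1 was led by Reactivated 1, at 423, 160 and 155, with 35.9 to 126 elsewhere. Without Reactivated 2 the folds of these 5 over the highest other group were 2.78 to 3.32. Without Reactivated 1, its highest library, the fold of Dnaic1 was 1.77, below the rule. Each of the others had 2.67 to 2.96 without its own highest Reactivated library.

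Foxj1, the transcription factor that switches on motile cilium genes, met the fold at 2.54 but missed the level, with a Reactivated mean of 46.8. Its fold over Basal was 3.04, given as a description, since meeting the rule's fold already fixed the direction. The marker counts that follow include Foxj1. Of 9 choroid plexus and ependyma markers tested, 2 rose and 1 fell against Basal, 2 rose and 1 fell against Early, and 7 rose and 1 fell against Late, with a median log2 difference of 1.43 in the last. Ttr, the thyroid hormone carrier that choroid plexus makes in bulk, rose 6.49-fold against Late (log2 2.70 ± 0.457 SE, edgeR adjusted p = 0.000634). The list's sum was 1364 to 2278 in Reactivated, 1079 to 1738 in Basal, 758 to 2734 in Early and 654 to 716 in Late, so Reactivated overlapped Basal and Early. The 8 calls against Late numbered 3 to 5 when Late 1, Late 2, Late 3, Reactivated 2 or Reactivated 3 was left out. The 3 calls against Basal became 1 without Basal 1, Basal 2 or Reactivated 3, and the 3 against Early became 1 without Early 1, Early 2, Reactivated 1 or Reactivated 3. The part of ependymal or choroid plexus RNA in the cilium genes, in nuclei stained for NeuN, was not tested.

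Genes of the extracellular matrix included a neighbouring pair. Col4a3 and Col4a4 encode collagen chains of basement membranes, with no other coding gene between them in the annotation. Col4a3 was at 179, 411 and 133 in Reactivated, against 57.6, 75.3 and 23.3 in Late, 45.9, 58.0 and 66.8 in Early and 9.07, 29.2 and 78.9 in Basal. Col4a4 was at 125, 62.5 and 85.3 in Reactivated and 12.1 to 54.5 elsewhere. Both stood above the other 9 libraries, but Col4a3 was highest in Reactivated 2 and Col4a4 lowest there. The relatives of Adamts7 did not share its order. Of 34 ADAMTS proteases, inhibitors and substrates tested, 7 rose and 7 fell against Basal, 4 rose and 5 fell against Early, and 0 rose and 6 fell against Late. Their median log2 differences were -0.0951, 0.00658 and -0.0738, against 0.0196, 0.0256 and 0.0263 over all rows. Adamts17 fell 2.36-fold against Late (log2 -1.24 ± 0.172 SE, edgeR adjusted p = 0.000123). The 9 calls against Early numbered 2 to 5 when Early 1, Early 2, Early 3, Late 1, Late 2 or Reactivated 2 was left out, and the 6 against Late became 3 without Late 2.

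The 29 genes led by Reactivated 2 were the more abundant ones, with a median Reactivated mean of 2683 normalized counts against 123 in the 29 with no outstanding library. Reactivated 2 itself raises the first of these means. In the 9 libraries outside Reactivated, the summed level of the genes it led was 11826 to 32366. That of the 29 with no outstanding library was 2037 to 3588. Reactivated 2 was 2.74 to 14.7 times the next Reactivated library, with a median of 4.71. Their fold over the highest other group was 2.50 to 4.98 with all 3 libraries. Without Reactivated 2 its median was 1.41 and its range 0.515 to 2.34, so none of the 29 met the rule, 16 were under 1.5 and 3 were under 1. The other Reactivated libraries were close to each other, with a median ratio of Reactivated 1 to Reactivated 3 of 1.05.

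The 29 also shared an order within the other groups, which the rule did not use. Early 3 was the highest Early library in all 29, against 47.8% of rows with a Reactivated mean of 50 or more. Basal 3 was the highest Basal library in 27, against 48.1% of those rows, and Late 3 the lowest Late library in 26, against 41.7%. Median levels over the mean of the 9 libraries were 1.73, 8.38 and 1.71 in Reactivated, against 1.27, 1.28 and 0.780 in Late, 0.783, 0.914 and 1.63 in Early and 0.543, 0.709 and 1.01 in Basal. Genes that vary together across libraries are not independent, so these counts describe 1 shared order and not 29 separate observations. Within their groups Basal 3 and Early 3 also had the highest Rn45s share, and Late 3 the lowest. In Reactivated the direction was the opposite, since Reactivated 2, where the 29 were highest, had the lowest Rn45s share of its group. The part of the Rn45s share in the shared order was not tested. Without Basal 3 and Early 3 together, 58 rows met the rule, 56 of them among the 63.

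Among them, Ppm1h, a phosphatase that acts on Rab GTPases, was the highest. Its level was 4656, 21935 and 4112 in Reactivated, against 1028, 993 and 783 in Late, 1372, 1543 and 3255 in Early and 960, 1230 and 1912 in Basal. The fold over the Early mean was 4.98 with all libraries and 2.13 without Reactivated 2, and the lower Reactivated libraries still lay above the other 9. Bhlhe41, a repressor of the circadian clock, was at 2818, 14405 and 2687 in Reactivated, with 798 to 1983 elsewhere. Klf13, a zinc finger transcription factor, was at 2551, 6983 and 1643 with 595 to 1341 elsewhere. Without Reactivated 2, their folds were 1.97 and 2.14.

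Transcripts for RNA-handling proteins formed another group picked for function. Wtap, a subunit of the complex that writes N6-methyladenosine, was at 1075, 4413 and 931 in Reactivated, against 898, 901 and 520 in Late, 506, 573 and 899 in Early and 416, 531 and 573 in Basal. Alkbh5, which removes that mark, was at 1501, 6803 and 1385 in Reactivated and 427 to 1500 elsewhere. Igf2bp2, which binds it, was at 553, 3155 and 561 in Reactivated and 106 to 546 elsewhere. All 3 rested on Reactivated 2, with folds of 2.77, 2.52 and 4.10 that became 1.30, 1.12 and 1.61 without it. Paip1, a partner of the poly(A)-binding protein in translation, had folds of 4.47 and 1.80, with 1563, 8028 and 1389 in Reactivated. Marf1, an RNA-binding protein known from mouse oocytes, had 3.06 and 1.35, with 1700, 9079 and 2073 in Reactivated.

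Membrane, scaffold and axon proteins were also led by Reactivated 2. Fndc5, the precursor of the secreted peptide irisin, had 1816, 9238 and 1747 in Reactivated and 363 to 1609 elsewhere. Lrrc8a, a subunit of the volume-regulated anion channel, had 2664, 10660 and 2748 in Reactivated, Early 3 being at 2734. Cask, a scaffold of presynaptic and postsynaptic membranes, had 1308, 5917 and 1536, with 1365 in Early 3. In Lrrc8a and Cask, Reactivated 1 lay below Early 3 and Reactivated 3 above it. Dpysl2, which promotes axon growth, had 2938, 9126 and 3014, and 1049 to 2306 elsewhere. Hsf2 (a heat shock factor), Prr15, Tmem87a and Zbtb44 (a zinc finger protein) had folds of 3.70, 3.71, 3.30 and 2.99, which became 1.57, 1.57, 1.27 and 1.31 without Reactivated 2.

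In 3 members of the pattern the other Reactivated libraries averaged less than the highest other group, among them Musk and Usp26. Musk, the receptor kinase of the neuromuscular junction, was at 28.9, 221 and 37.3 in Reactivated, against 32.4, 48.9 and 32.7 in Late, 16.7, 20 and 44.3 in Early and 7.77, 10.1 and 24.4 in Basal. The other Reactivated libraries lay within or below the Late range, and the fold was 0.871 without Reactivated 2. Usp26, a deubiquitinating enzyme known from testis, was named after its values were seen and was at 8.26, 143 and 9.77 in Reactivated and 4.18 to 21.1 elsewhere, a fold of 0.515 without Reactivated 2.

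In the 5 members led by Reactivated 1, the fold over the highest other group without that library was 1.04 to 1.78. Igfn1, an immunoglobulin and fibronectin domain protein of skeletal muscle, was at 888, 82.7 and 131 in Reactivated, against 57.6, 68.7 and 55.1 in Late, 37.6, 91.8 and 180 in Early and 25.9, 94.3 and 109 in Basal. Grin2c, an NMDA-type glutamate receptor subunit, was at 326, 66.0 and 55.1 in Reactivated, with 20.5 to 75.3 elsewhere. In both, Reactivated 2 and 3 lay within the range of the other groups.

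**Figure D4:**
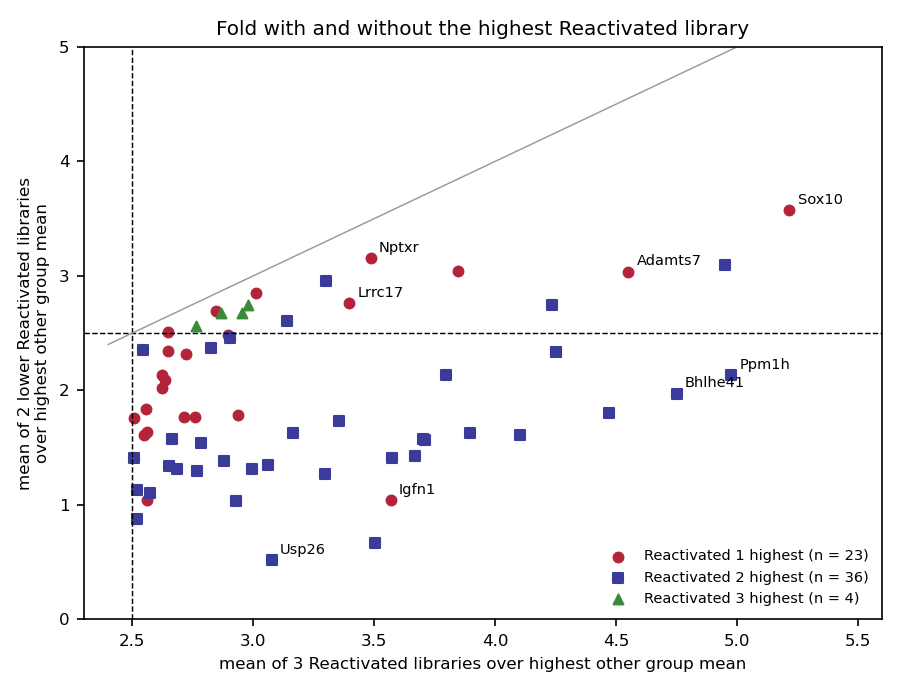
Fold of the Reactivated mean over the highest other group mean (x) against the same fold without the highest Reactivated library (y), 1 point per member, coloured by the library that was highest. Dashed lines mark 2.5, the grey line marks equality, and 16 of 63 points lie at or above 2.5 on the y axis.

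The rule's thresholds passed through a continuum. Just inside the fold of 2.5 lay Cep97, a centrosomal protein, at 2.505, the gene model 2810433D01Rik at 2.506 and Musk at 2.518. Just outside lay Cisd3, a mitochondrial iron-sulfur protein, at 2.489, Atp5e, an ATP synthase subunit, at 2.483 and Crip2, a LIM domain protein, at 2.478. Every one of the 63 had at least 10 counts in 3 or more libraries outside Reactivated, so none passed the filter through Reactivated alone, and 50 had them in all 9.

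Comparisons among Basal, Early and Late were not used to choose the members beyond keeping all 3 groups low, and were tested by the quasi-likelihood test of edgeR. Of the 63 members, 2 were called in Early against Basal (3.17%), both higher, while 6.03% of all rows were called, 3.36% higher and 2.66% lower. The members' median log2 difference was 0.37, against 0.0102 over all rows, and 49 of 63 were above 0. Early 3 was the highest Early library in 49 members, against 47.8% of rows with a Reactivated mean of 50 or more. Members that share such an order are not independent, so the count above 0 does not hold separate observations. Lrrc17 rose 2.05-fold (log2 1.04 ± 0.242 SE, edgeR adjusted p = 0.0189). Each Early library lay above each Basal library, but the call was lost without Basal 1, Basal 2 or Early 1. Slc5a5, the iodide transporter of the thyroid, rose 2.59-fold (log2 1.37 ± 0.357 SE, edgeR adjusted p = 0.0333) at 19.4, 13.5 and 13.6 in Basal and 32.4, 57.3 and 28.4 in Early. That call was lost without any of Basal 1, 2 or 3, Early 1, Early 2 or Late 2, with libraries scaled to the same total, and with the replicate number as a block in all 4 groups. With the block in Basal and Early alone, where same-numbered libraries deviated together, both calls were kept (edgeR adjusted p = 0.0203 for Lrrc17 and 0.0413 for Slc5a5).

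Of the same members, 10 were called in Late against Basal (15.9%), 5 higher and 5 lower, against 49.1% of all rows, 25.4% higher and 23.7% lower. Without Reactivated 2 in the fit, 20 were called. Tmsb10 rose 1.95-fold, Slc5a5 (27.6, 37.0 and 48.6 in Late) 2.48-fold and Tceal6 1.97-fold (edgeR adjusted p = 0.00103, 0.00854 and 0.0186). These 3 calls were lost with libraries scaled to the same total, and that of Tceal6 also with upper quartile scaling and without Basal 1. Lrrc17 fell by 5.64 on the log2 scale (± 0.430 SE, 49.9-fold, edgeR adjusted p = 2.81e-07), and its log2 difference was -6.88 without Late 2, the highest Late library. Trpv4 fell by 3.18 (± 0.542 SE, 9.04-fold, edgeR adjusted p = 0.000258) and Plxnb3 by 2.22 (± 0.414 SE, 4.64-fold, edgeR adjusted p = 0.000532). All 3 had at most 6.61, 2.64 and 8.41 normalized counts in any Late library, so the size of these falls rests on few reads.

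Late against Early gave 7 calls among the 63 members, 2 higher and 5 lower, against 42.3% of all rows, 22% higher and 20.3% lower. Lrrc17 fell by 6.68 on the log2 scale (± 0.411 SE, 102-fold, edgeR adjusted p = 6.9e-08), and its log2 difference was -7.92 without Late 2. Plxnb3 fell by 1.87 (edgeR adjusted p = 0.0026) and Trpv4 by 2.50 (edgeR adjusted p = 0.00266). Tmsb10 rose 1.53-fold (edgeR adjusted p = 0.0194). That call was lost without Early 1, Early 2, Late 1 or Late 2 and with upper quartile scaling, and its sign turned with equal library totals. Members called numbered 13 without Reactivated 2 and 11 without Early 3. Since all 4 groups share 1 estimate of the spread in the fit, the rule's choice of genes with uneven Reactivated libraries bears on these counts, and nothing is read from the members' rate of calls.

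**Figure D5:**
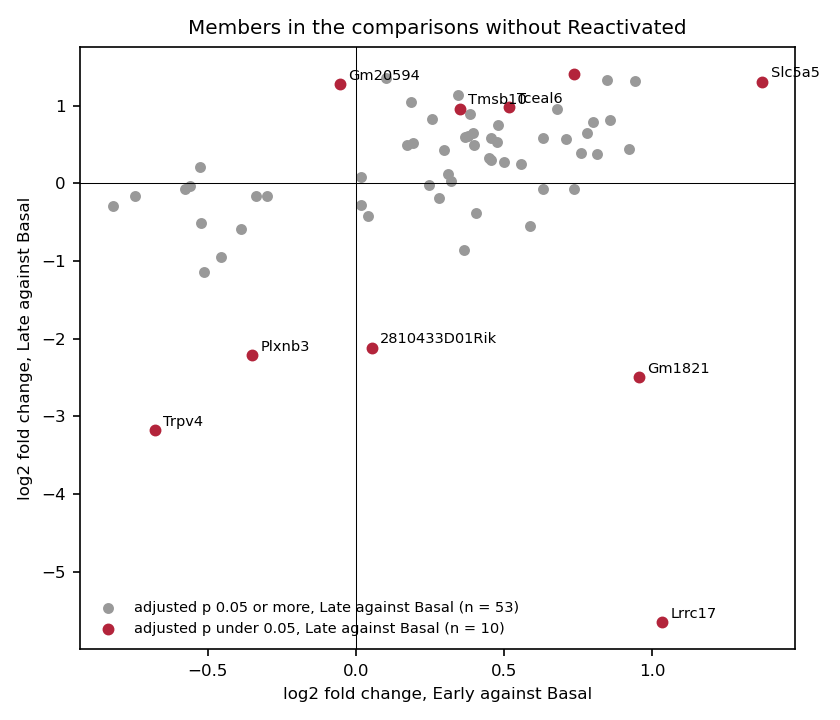
Log2 difference of Early from Basal (x) against that of Late from Basal (y) for the 63 members, with the 10 called in Late against Basal in red. Both axes use the same Basal libraries, so the positions are not independent. Lrrc17, Trpv4 and Plxnb3 lie low on the y axis, and Slc5a5 lies high on both.

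Immediate early genes, whose transcripts rise with neuronal activity, held no member. Of 20 tested, 14 rose and 1 fell against Basal, 7 rose and 0 fell against Early, and 5 rose and 1 fell against Late. Their median log2 differences were 1.35, 0.589 and 0.531. Arc rose 4.52-fold against Basal (log2 2.18 ± 0.235 SE, edgeR adjusted p = 3.33e-05) and Jun 2.28-fold against Late (log2 1.19 ± 0.159 SE, edgeR adjusted p = 8.63e-05). Jun was at 409, 371 and 306 in Reactivated, which overlapped its 328, 354 and 296 in Basal. Its means in Early and Late were lower, at 189 and 158. The list's sum was 4626 to 5886 in Reactivated, 3754 to 3865 in Late, 3684 to 4413 in Early and 2148 to 2687 in Basal. Without Early 2 the calls against Early numbered 4. Genes of calcium release and storage in the endoplasmic reticulum, the setting of Tmem38b, moved in both directions. Of 27 tested, 11 rose and 6 fell against Basal, 4 rose and 5 fell against Early, and 5 rose and 4 fell against Late. The 9 calls against Early numbered 4 or 5 without Early 1, Early 2 or Reactivated 3, and the 9 against Late became 4 without Late 1.

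Other cell type lists were read in the same way. Of 11 astrocyte markers 2 rose and 0 fell against Basal, 2 rose and 0 fell against Early, and 7 rose and 1 fell against Late. Against Early the calls numbered 1 without Reactivated 1 and 5 without Reactivated 2, and against Late 4 or 5 without Late 1, Late 2, Late 3 or Reactivated 1. Their summed level was highest in Reactivated 1, at 9103, against 3074 to 5789 in the other 11 libraries. Of 14 dentate granule cell markers 0 rose and 13 fell against Basal, while 9 of 10 CA1 pyramidal neuron markers and 7 of 11 pan-neuronal markers rose. Against Early, 1 dentate marker rose and 1 fell, and against Late, 3 rose and 2 fell. The dentate sum was at least 10250 in each Basal library and at most 4239 in any other library. Early and Late thus shared the lower dentate level. CA1 markers called higher and lower numbered 4 and 0 against Early, and 3 and 1 against Late. For pan-neuronal markers these numbers were 5 and 0, and 2 and 1. The CA1 sum was at most 1345 in Basal and at least 2408 elsewhere. Microglial markers summed to 1051 to 2289 in Reactivated and 5999 to 10200 in Late, but the markers did not move as 1 list. Of 8 tested, 1 rose and 3 fell against Late, with a median log2 difference of -0.0687. Itgam and Cx3cr1 fell by 2.72 and 2.62 on the log2 scale (edgeR adjusted p = 6.98e-06 and 2.86e-05), while P2ry12 rose by 1.73 (edgeR adjusted p = 0.0333). Without Late 1 or without Late 2 the calls numbered 2. Of the blood cell list, 6 genes were at 0 in all Reactivated libraries, among them the 4 hemoglobin genes.

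Motif shares in the members' promoter windows were set beside those of all windows, as a description. A window was matched for 54 of the 63 members and for 12065 of the 15668 rows tested, and motifs were searched on both strands. The E-box letters CANNTG were in 64.8% of members' windows and 64.7% of all. The GC box letters GGGCGG were in 66.7% and 60.6%, and the TATA box letters TATAAA in 9.26% and 7.71%. The cyclic AMP response element TGACGTCA was in 1.85% and 3.03%, and its shorter core TGACG, which overlaps it, in 18.5% and 29.7%. The AP-1 letters TGANTCA were in 3.70% and 5.16%, the EGR letters GCGNGGGCG in 3.70% and 10.3%, and the SRF motif in 0 members and 1.30% of all. Median GC content was 60.2% in members and 60.3% in all windows. The median CpG ratio, observed over that given by base content, was 0.667 against 0.735, with 0.787 in the 25 windows of genes led by Reactivated 2 and 0.489 in the 29 others.

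In a later annotation (GENCODE vM21), 55 of the 63 are protein coding (87.3%, against 91.7% of all rows matched), and the median gene span is 20 kb against 23.7 kb over all rows matched. In 24 members (38.1%) a gene on the opposite strand overlaps, against 45.5% of all rows matched, and whether the counting used strand is not stated. Of these partners 14 were tested, for 12 members, and none reached 2.5 times the highest other group, with ratios of 0.0974 to 2.21. Tbc1d2b, opposite Adamts7, had 0.876, Sphk2, opposite Dbp, 0.664, and Nde1, opposite Marf1, 2.21. The pseudogenes Gm1821 and Gm5766 are uncertain, since reads of their parent genes may be counted there.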

How the data were processed

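The deposited table holds whole-number counts per gene symbol and library. The file's name calls them normalized, but the totals differ by library and size factors range from 0.734 to 1.46, so they were treated as raw counts. Bowtie2 2.0, Cufflinks 2.2, DESeq2 and build mm9 are named in the submitters' processing notes, without roles. Library preparation used a stranded total RNA kit with 15 PCR cycles per the labels' protocols, while the design text names SmartSeq2.

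Rows with a count of at least 10 in 3 of 12 libraries (15668) were scaled by TMM and tested with the quasi-likelihood test of edgeR 4.0.16 (R 4.3.3, limma 3.58.1) in 1 fit of the 4 group means. Two-sided p-values received the Benjamini-Hochberg adjustment across all rows tested, with a threshold of 0.05. "Rose", "fell" and "called" mean passing that threshold. A replicate is a pool of mice per the labels. Same-numbered Basal and Early libraries deviated together from their group means (r of 0.132 to 0.461 in 3 pairs), a pairing taken from the data, since the labels state none.

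Groups came from the titles. The members, gene lists and naming rule were chosen with earlier results of these data known. Named are the given genes, the 15 members with the largest fold, the 15 with the highest Reactivated mean, the 10 with the largest lowest-Reactivated to highest-other library ratio, members called without Reactivated (up to 6 each way), the 3 rows on each side of the fold threshold, and up to 4 genes per list. Members grouped by function were picked in addition. A member that meets this naming rule is not reported here. Promoter sequences are RefSeq's (GRCm38.p6), and coordinates of the authors' build are not given. Alternatives were other scalings, no filter, DESeq2 1.42.0, a replicate block, each library left out, and other rule thresholds.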

Additional observations from a re-analysis of the deposited data

How the results depend on the processing

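The number of genes meeting the rule was 63, and 113 at a fold of 2, 28 at a fold of 3, 34 with group medians and 7 with each Reactivated library in place of the mean (an alternative chosen after seeing the data, as were the joint omission of Basal 3 and Early 3 and the scalings of the pattern counts). Leaving out 1 library gave 51 to 89. With DESeq2 size factors the same 63 met it, and with upper quartile scaling 61, of which 53 were shared. With libraries scaled to the same total 43 met it and 33 were shared. That scaling counts Rn45s in full, and it moved the median log2 difference of all rows to -0.869 in Late against Basal, -0.78 in Late against Early, -0.463 and -0.371 in Reactivated against Basal and Early, and 0.383 against Late. Rows called higher and lower became 1401 and 9069 (3981 and 3706 with TMM), 1208 and 8607 (3441 and 3187), 1237 and 5833 (3223 and 2946), 719 and 4285 (2120 and 1988), 3890 and 1091 (1615 and 1926), and in Early against Basal 341 and 446 (527 and 417). With upper quartile scaling they were 3016 and 5114 in Late against Basal, 2482 and 4637 in Late against Early, 1659 and 2502 in Reactivated against Early, and 2260 and 1590 in Reactivated against Late. Members called with libraries scaled to the same total were 1 in Early against Basal, 18 in Late against Basal and 20 in Late against Early, and Tmsb10 in Late against Early turned to -0.15 on the log2 scale.

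With 1 library left out, rows called were 488 to 1224 in Early against Basal (944 with all), 6102 to 8319 in Late against Basal, 4781 to 7251 in Late against Early, 4193 to 6613 in Reactivated against Basal, 1703 to 4602 in Reactivated against Early (4108 with all) and 2135 to 3827 in Reactivated against Late (3541 with all). Members called were 0 to 2, 8 to 20 and 5 to 13 in the 3 comparisons without Reactivated. With the replicate number as a block in all 4 groups, 1 member was called in Early against Basal, since Slc5a5 was lost. With the block in Basal and Early alone (chosen after seeing the data), 1339 rows and 2 members were called. In the other 5 comparisons the numbers did not pair the samples, since deviations of same-numbered libraries from their group means correlated at -0.205 to 0.153. Of the list counts given above, those that moved by over 1.5 times with libraries scaled to the same total included ADAMTS genes (12) and immediate early genes (10) against Late, oligodendrocyte precursors (0 against Basal, 0 against Early), oligodendrocytes (2 against Basal) and astrocytes (1 against Early). The DESeq2 test called 5 choroid plexus and ependyma markers against Early, upper quartile scaling gave 3 oligodendrocyte markers against Basal, and the block gave 1 oligodendrocyte precursor and 4 astrocyte markers against Early. Where no cause is named, the cause was not tested. Members under 10 counts in a group, such as Lrrc17 in Late, have folds limited by depth.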
